A study of Mus musculus with 6 samples.

Results

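Chaperones and heat shock proteins were followed in the RefSeq mRNA of mouse mature sperm and testes. The members were taken by gene symbol as the HSP70, HSP110, HSP90, HSP60, HSP10 and small heat shock genes, the DNAJA, DNAJB and DNAJC co-chaperones, the subunits of the chaperonin TRiC and the BAG genes. This gave 85 genes of the 14455 with at least 1 listed RefSeq mRNA (transcripts whose identifiers begin with NM_). They fell into 11 HSP70, 3 HSP110, 3 HSP90 and 6 small heat shock genes, 2 genes of the mitochondrial HSP60 and HSP10 chaperonin, 10 genes named as TRiC subunits, 4 DNAJA, 13 DNAJB, 27 DNAJC and 6 BAG genes. Hspa2, Hspa1l and Dnajb3 were set apart as testis-specific, and 8 further members with known germ cell forms (Hspa4l, Hspb9, Dnajb7, Dnajb8, Dnajb13, Dnajc5b, Dnajc5g and Cct6b) completed a germ cell list of 11. The other 74 members are called ubiquitous below, as a label for not being on this list. Their breadth of expression was not tested.

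The study sequenced rRNA-depleted total RNA to describe the RNA that mature sperm carry, in 4 sperm libraries and 2 testes libraries. All mice were of the inbred strain C57BL/6 by the labels and C57BL/6J by the methods, with no transgene and no treatment named. The labels give their age as 3 to 5 months, and the methods give a younger range. Each sperm library was a pool over mice of cells that swam out of the vas deferens and caudal epididymis and then went through a lysis step against somatic cells. Testes of the same animals were arranged as 2 replicates of whole tissue, so a testes library mixes germ cells of all stages with somatic cells. The study reported that its sperm RNA was richer in small fragments and lacked the ribosomal RNA peaks seen in testes. RNA integrity thus differed along with the groups, cannot be told apart from them, and its part in the results below was not tested.

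HSP70 proteins bind unfolded stretches of other proteins in a cycle driven by ATP. DNAJ proteins bring them clients and start the ATPase step, HSP110 and BAG proteins release the nucleotide, HSP90 takes over clients close to their final fold, and the ring-shaped TRiC folds actin and tubulin. Male germ cells express forms of their own, among them HSPA2, which spermatocytes need to complete meiosis, while mature sperm are transcriptionally silent and carry RNA left from earlier stages.

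RefSeq mRNA took 9.14 to 12.1% of all estimated counts, which left 33511 to 100027 counts per sperm library and 314273 and 322625 per testes library. One library stood apart in breadth, sperm replicate 2, which listed 46.6% of all genes against 10.7 to 22.9% in the other sperm libraries. Levels are given as CPM, the share of a library's RefSeq mRNA counts in ppm, and 3 counts were worth 29.99 to 89.5 CPM in sperm and 9.30 and 9.55 CPM in testes. In sperm a single gene, Abi3, took 10.1 to 14.2% of these counts, and the CPM of every other gene is a share of the rest. Of the 6 markers of haploid germ cells, Prm2 had 45 to 148 counts in each sperm library. In sperm replicates 1 to 4, Prm1 had 6, 2, 0 and 2 counts and Tnp1 had 0, 2, 0 and 0. Tnp2 had 3, 18, 0 and 4 counts, Odf1 had 0 and Akap4 had 1 count in 1 library. All 6 had counts in both testes libraries. All 5 spermatocyte markers had 0 counts in all 4 sperm libraries, and 4 of them had counts in testes. Their testes levels were at most 41.4 CPM. This was under the value of 3 counts in sperm replicates 1, 3 and 4, so the zeros there carry little information. The 4 leukocyte markers summed to 0 to 4 counts per sperm library and the 5 markers of epididymal epithelium to 0 to 5. Their defining genes Ptprc and Cdh1 were at 0 in testes too, so their zeros in sperm carry no information. The Leydig cell gene Star had 0, 16, 40 and 6 counts in sperm replicates 1 to 4, against 168 and 148 in testes. The summed Leydig list spanned 0 to 1194 CPM in sperm and 531 and 558 CPM in testes, and the summed Sertoli list 0 to 283 CPM and 45.9 and 80.6 CPM. The part of these cells in the results below was not tested.

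The testis-specific members were few in sperm and were listed in only some libraries. Hspa2 (chromosome 12, 76403812 to 76406938, mouse build GRCm38.p6), the meiotic HSP70, had 8 and 5 counts in sperm replicates 2 and 4 and 0 in replicates 1 and 3, against 49 and 66 in testes. Hspa1l (chromosome 17, 34972703 to 34979228), an HSP70 of spermatids, had 3.31 and 3 counts in the same sperm replicates and 0 in replicates 1 and 3, against 38.07 and 43.92 in testes. Dnajb3 (chromosome 1, 88204732 to 88205748), a DnaJ co-chaperone of spermatogenic cells, had 5 and 1 counts in sperm replicates 2 and 4, 0 in replicates 1 and 3, and 28 and 46 in testes. Sperm replicates 2 and 4, the largest sperm libraries, thus held every count of the 3 genes in sperm, and for each gene every sperm library lay below both testes libraries in CPM. In bulk RNA like this, fewer cells of a type and less RNA per cell cannot be told apart. Dnajb3 lies within the span of several Ugt1a genes.

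The letters upstream of these genes are shown beside those of the stress-inducible Hspa1a and Hspa1b, since of these 5 genes only the inducible pair carried a heat shock element in the window searched. Each line gives the 250 bases before the annotated transcript start, 5′ to 3′ on the gene's strand, from RefSeq on GRCm38.p6. The Hspa2 window begins 308 bases inside the span given above, so it precedes one listed start and not the outermost end of that gene. Capitals mark matches on either strand to the heat shock element units GAANNTTC and TTCNNGAA, to the CCAAT box (read as ATTGG when it lies on the opposite strand) and to TGACGT, the core of a cAMP-response element.
Hspa2, chr12:76404120-76404369, plus strand: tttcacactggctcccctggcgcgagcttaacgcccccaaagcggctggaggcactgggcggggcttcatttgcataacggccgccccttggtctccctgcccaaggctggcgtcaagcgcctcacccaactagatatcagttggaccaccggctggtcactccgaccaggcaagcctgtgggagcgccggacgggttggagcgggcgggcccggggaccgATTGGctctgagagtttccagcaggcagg
Hspa1l, chr17:34972453-34972702, plus strand: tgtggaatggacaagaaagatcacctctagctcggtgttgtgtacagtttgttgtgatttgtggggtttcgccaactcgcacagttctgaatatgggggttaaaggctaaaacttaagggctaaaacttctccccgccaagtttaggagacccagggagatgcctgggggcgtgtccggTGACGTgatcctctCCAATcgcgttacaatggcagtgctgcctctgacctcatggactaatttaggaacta
Dnajb3, chr1:88205749-88205998, minus strand: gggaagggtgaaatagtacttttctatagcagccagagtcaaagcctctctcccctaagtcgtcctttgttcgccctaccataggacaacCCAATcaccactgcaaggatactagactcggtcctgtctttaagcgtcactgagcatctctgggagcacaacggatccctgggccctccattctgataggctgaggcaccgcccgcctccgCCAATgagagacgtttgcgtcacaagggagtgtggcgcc
Hspa1a, chr17:34972157-34972406, minus strand: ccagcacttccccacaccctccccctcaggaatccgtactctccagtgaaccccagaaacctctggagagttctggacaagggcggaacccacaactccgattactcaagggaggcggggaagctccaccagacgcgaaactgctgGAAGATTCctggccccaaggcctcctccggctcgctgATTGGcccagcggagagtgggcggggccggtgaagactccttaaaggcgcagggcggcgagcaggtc
Hspa1b, chr17:34959239-34959488, minus strand: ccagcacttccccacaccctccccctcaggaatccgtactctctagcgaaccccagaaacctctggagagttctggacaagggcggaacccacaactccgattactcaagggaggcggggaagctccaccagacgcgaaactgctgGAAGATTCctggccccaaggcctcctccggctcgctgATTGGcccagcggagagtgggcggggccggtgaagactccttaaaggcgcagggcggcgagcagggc

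Hspa1a and Hspa1b each held GAAGATTC 104 bases before the start and ATTGG at 67 bases, and their windows were alike at 247 of 250 positions. The 3 testis-specific windows held neither form of the heat shock element. They held CCAAT or its complement at 29 bases in Hspa2, at 57 bases in Hspa1l, and at 160 and 39 bases in Dnajb3, and Hspa1l held TGACGT at 71 bases. The elements are common letters. Among 32851 mouse promoters of the same length, 12.8% held either heat shock form, 33.8% CCAAT and 6.47% TGACGT, and a gene can have several promoters listed. Counted by gene, with any of its promoters, a heat shock form was in 17 of the 71 members listed there (23.9%) and in 14.5% of the 27025 genes listed. These 17 include Hspa1a, Hspa1b, Hsph1, Hspb1, Hspd1 and Hspe1. Hspa1l and Hspa1a lie head to head on chromosome 17 with 546 bases between their starts, so their windows face each other in that interval.

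In CPM the sperm means over replicates 2 to 4 were 57.3 ± 50.0 for Hspa2, 29.4 ± 27.8 for Hspa1l and 22.8 ± 25.3 for Dnajb3 (SD, n = 3). In testes they were 181 ± 41.1, 129 ± 15.4 and 117 ± 42.1 (SD, n = 2). None of the 3 passed the test: edgeR's log2 fold changes were -1.55 (SE 1.33, adjusted p 0.397), -2.05 (SE 1.51, adjusted p 0.314) and -2.08 (SE 1.52, adjusted p 0.310). At an unadjusted p under 0.05 the number among the 3 was 0 with edgeR, 3 with DESeq2 and 2 with limma on log2(FPKM + 1), and after adjustment it was 0 with each tool.

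**Figure D1:**
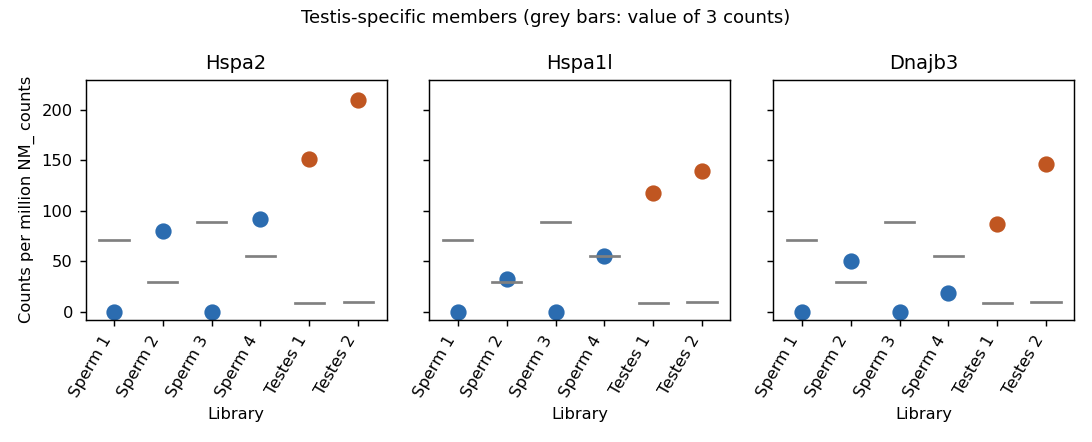
CPM of Hspa2, Hspa1l and Dnajb3 in each library (points, linear axis; sperm blue, testes brown), with the value of 3 counts in that library as a grey bar. Sperm replicates 1 and 3 are at 0 for all 3 genes, under bars at 70.8 and 89.5 CPM, and the testes points are the highest for each gene.

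The zeros of sperm replicates 1 and 3 were read against their depth. At the mean testes level, Hspa2 would give 7.67 and 6.06 counts in these libraries, Hspa1l 5.46 and 4.32, and Dnajb3 4.94 and 3.91, which is above the 3 counts that a count of 0 allows in each case. Such zeros were not particular to the testis-specific genes. The ubiquitous Hsp90ab1 would give 7.44 and 5.88 counts and Dnajb6 5.93 and 4.69, and both had 0 in these libraries. Of the 85 members, 10 were listed in every sperm library. Set against the ubiquitous members, the testis-specific 3 held 16 counts beside 715 in sperm replicate 2 (2.19% of both, Wilson 95% interval 1.35 to 3.53) and 9 beside 309 in replicate 4 (2.83%, 1.496 to 5.29). In testes they held 3.26% (2.73 to 3.90) and 3.82% (3.27 to 4.45). In sperm replicates 1 and 3 the share was 0, which allows up to 0.915% and 1.09% as 3 counts of the total, with Wilson upper limits of 1.16% and 1.38%. The shares of sperm replicates 2 and 4 lay below both testes shares, and their intervals overlapped those of both testes libraries. Overlap of intervals does not decide whether the mix of specific and ubiquitous forms differed, and this was not tested. Counts copied by PCR are not independent molecules, so these intervals and limits cover counting error only.

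On the log2 scale, the ratio of testis-specific to ubiquitous counts was -5.48 in sperm replicate 2, -5.10 in replicate 4, and -4.89 and -4.65 in testes. It has no value in replicates 1 and 3, where the specific counts were 0. Over sperm replicates 2 to 4 the mean share was 1.67% ± 1.48 (SD, n = 3), against 3.54% ± 0.392 (SD, n = 2) in testes. The log2 ratio of the groups' mean specific to mean ubiquitous CPM was lower in sperm than in testes by a difference of -1.24, and without replicate 3 by -0.53. With the whole germ cell list in place of the 3 genes the difference was -0.42. In testes, Dnajc1 alone held 1548 of the 3408 and 1445 of the 3929 ubiquitous counts. In sperm replicates 2 and 4 it held 45 of 715 and 32 of 309, so it weighs more on the testes ratio. Leaving Dnajc1 out would raise the testes ratio more than the sperm ratio and so widen the difference. The size of the ratio without Dnajc1 was not computed.

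The remaining germ cell forms did not share a single pattern. Dnajb8 (chromosome 6, 88222268 to 88223256), a DNAJB protein that keeps aggregation-prone proteins apart, had 50, 99, 16 and 59 counts in sperm replicates 1 to 4, against 489 and 588 in testes. Per length it was the highest member in both groups, with 2179 ± 815 ppm (SD, n = 3) of the summed RefSeq mRNA FPKM in sperm and 4511 ± 630 (SD, n = 2) in testes. Its CPM was lower in every sperm library than in both testes libraries, at 477 to 1180 against 1516 and 1871, but the difference did not pass (edgeR log2 fold change -0.98 ± 0.54 SE, adjusted p 0.164).

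Hspa4l, an HSP110 exchange factor abundant in testis, had 1 and 3 counts in sperm replicates 2 and 4 and 30 and 51 in testes (edgeR log2 fold change -2.48, adjusted p 0.234). Hspb9, a small heat shock protein known from testis, had 1 count in sperm, in replicate 4, and 19 and 18 in testes. Its edgeR log2 fold change was -3.22 with an adjusted p of 0.113. Dnajb7 had 6 counts in sperm replicate 4 alone and 23 and 23.47 in testes. Cct6b, the testis form of the TRiC zeta subunit, had 2 and 4 counts in sperm replicates 2 and 3 and 15 and 14 in testes, for which edgeR gave a log2 fold change of -0.23 and an adjusted p of 0.925. Of the other 3, Dnajc5g had 12 counts in sperm replicate 2 against 5 and 2 in testes, and the axonemal Dnajb13 and the cysteine string protein Dnajc5b had 0 in sperm and at most 4 in a testes library. These 3 were too low to be tested. Of the 8 germ cell list genes tested, edgeR called 0, where 6.7% of all genes tested were called higher in sperm and 20.8% lower, and 1 had an unadjusted p under 0.05. DESeq2 called 0 as well, with 6 at an unadjusted p under 0.05, and limma on log2(FPKM + 1) called 1, Hspb9, lower (adjusted p 0.0421).

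The number of members listed was far from even between the libraries. Sperm replicates 1 to 4 listed 15, 50, 17 and 27 of the 85 members, and each testes library listed 77. Brought to the 33512 counts of the smallest library by calculation, the expected numbers were 14.9, 36.3, 17.0 and 25.2 in sperm and 47.8 and 50.8 in testes, so the testes libraries stayed above all sperm libraries. At that depth sperm replicate 2 was above the other sperm libraries. The same held for all genes, of which 84.7% and 79.8% were listed in testes.

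A set of 10 members was listed in every sperm library: Bag1, Dnajb4, Dnajb8, Dnajc1, Dnajc14, Dnajc5, Dnajc7, Hspa12a, Hspa1a and Tcp1. Of all genes, 5.39% were listed in all 4. Another 4 members were in 3 sperm libraries, 15 in 2, 27 in 1, and of these 27 the library was sperm replicate 2 for 22. In no sperm library were 29 members listed, against 47.9% of all genes. They include the TRiC subunits Cct2, Cct3, Cct5, Cct6a and Cct8, both Dnaja2 and Dnaja3, and Hspe1, the HSP10 of mitochondria. Testes listed 71 members in both libraries, 12 in 1 and missed Dnajc12 and Dnajc4. In sperm replicates 2 to 4 every value lay below both testes values for 46 of the 85 members, beside 38.5% of all genes. A member with 0 counts in sperm needed only a count in each testes library to be among them, as Dnajc15 with 1 and 1. Every value lay above both testes values for 3 members (Dnajc17, Dnajc5 and Hspa12a), beside 3.67% of all genes.

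**Figure D2:**
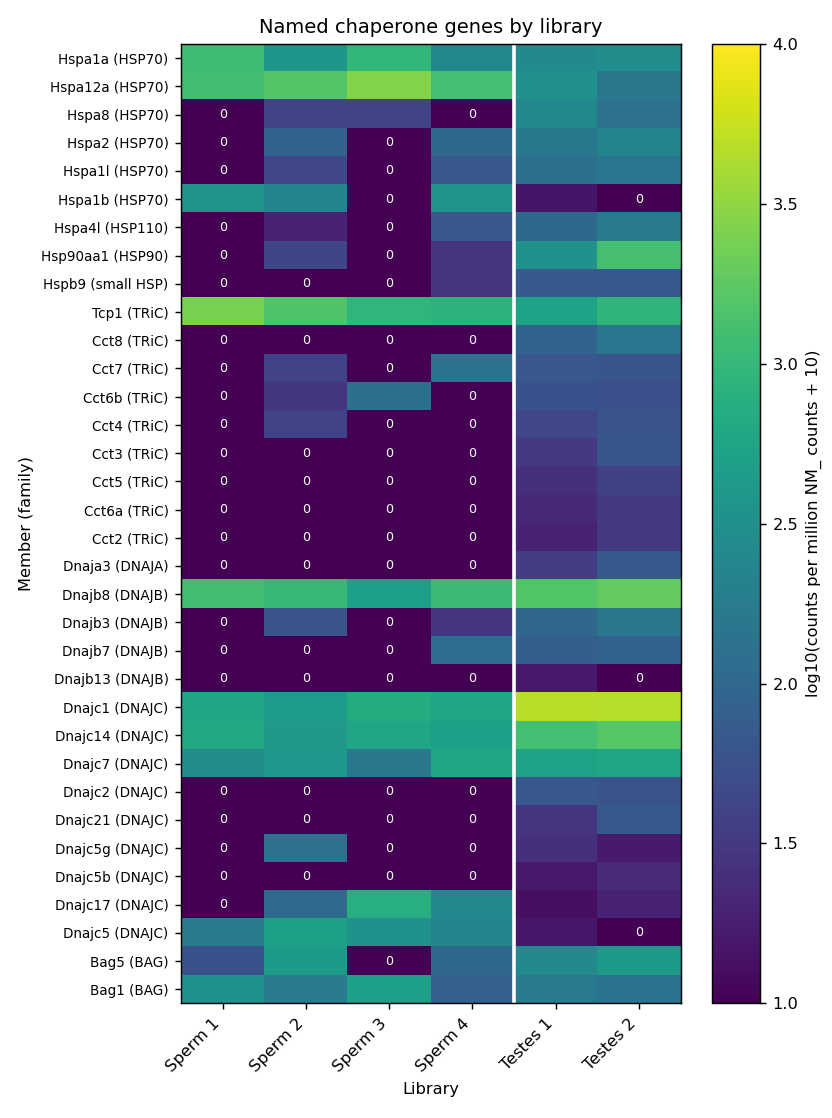
Level of the 34 named members in each library, as log10 of CPM plus 10 (colour), with 0 written where no count was listed and a white line between sperm and testes. Hspa1a, Hspa12a, Tcp1, Dnajb8, Dnajc1, Dnajc14, Dnajc7, Dnajc5 and Bag1 are coloured in every sperm library, while most TRiC subunits are at 0 there.

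Together the members held 0.892, 0.845, 0.881 and 0.712% of the RefSeq mRNA counts in sperm replicates 1 to 4, against 1.27 and 1.52% in testes. The mean of replicates 2 to 4 was 0.813% ± 0.0893 (SD, n = 3) against 1.40% ± 0.177 (SD, n = 2), a ratio of 0.581, and the sperm libraries all lay below the testes libraries. Much of the gap sat in 1 gene. Without Dnajc1, an alternative chosen after seeing the data, sperm held 0.754% ± 0.0879 and testes 0.928% ± 0.191, which is 0.812 times as much in sperm, and the difference of 0.174 percentage points was smaller than the SD of the testes pair. The 5 highest members of a library held 58.9 to 74.6% of the members' counts in sperm and 67.5 and 67.6% in testes.

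The families differed in direction when scaled by the RefSeq mRNA total. HSP70 genes summed to 2737, 2349, 3999 and 2043 CPM in sperm replicates 1 to 4, above the 1345 and 1139 CPM of testes. DNAJC genes summed to 1675, 2179, 2626 and 2202 CPM in sperm and 7102 and 7208 CPM in testes. DNAJB genes summed to 1321, 1200, 597 and 1307 CPM in sperm and 1992 and 2447 CPM in testes. On this scale every sperm library was above both testes libraries for HSP70 and below both for DNAJC and DNAJB. The HSP70 order rested on Hspa12a: without it, an alternative chosen after seeing the data, the sums were 1557, 800, 1223 and 791 CPM in sperm replicates 1 to 4, against 1023 and 989 CPM in testes, and the groups overlapped. Of the 9 HSP70 genes tested, 6 had a negative log2 fold change.

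The HSP90 genes summed to 0, 132, 29.8 and 184 CPM in sperm and 511 and 1842 CPM in testes. HSP110 genes gave 0 to 184 CPM in sperm and 187 and 252 CPM in testes, and DNAJA genes 0 to 50.0 CPM and 84.6 and 172 CPM. The BAG family (184 to 720 CPM in sperm, 533 and 678 CPM in testes) overlapped between the groups, as did the TRiC family with Tcp1 included (994 to 2501 CPM, 831 and 1343 CPM). The HSP70 sum depended on the scaling: as log2 of sperm replicates 2 to 4 over testes it was 1.17 by the RefSeq mRNA total, 0.48 with TMM factors and 0.09 with DESeq2 size factors, where the libraries overlapped. The TRiC sum changed sign, from 0.17 to -0.27 and -0.85. The sums of DNAJC, DNAJB, DNAJA, HSP90 and HSP110 stayed below testes under each of these scalings.

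**Figure D3:**
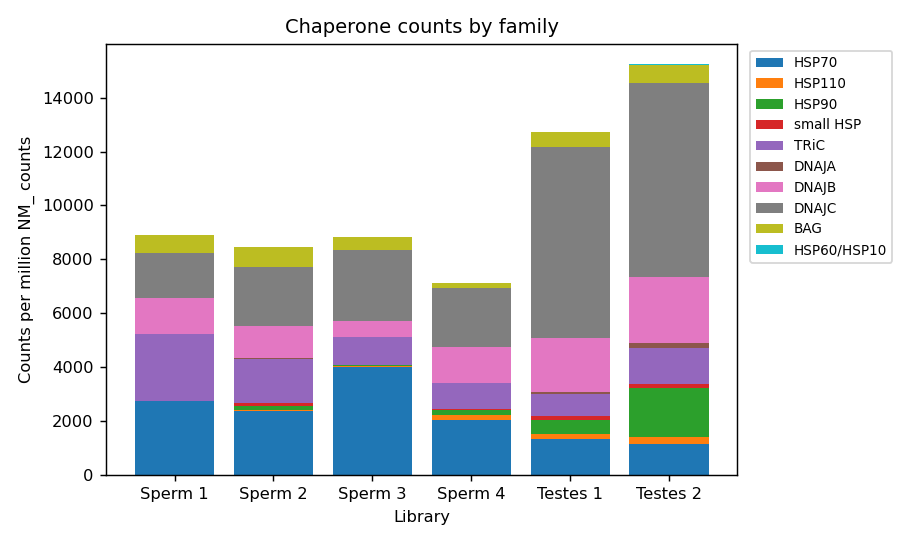
Summed CPM of the members by family in each library (stacked bars from 0). The DNAJC block is the largest in both testes libraries, at 7102 and 7208 CPM, and the HSP70 block is the largest in sperm replicates 1 to 3, at 2349 to 3999 CPM.

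Single genes were then compared between sperm replicates 2 to 4 and testes with edgeR, in 1 fit over all 4628 genes that had at least 20 counts over the 5 libraries. A gene was called at an adjusted p under 0.05 with a fold above 2. Of the members, 45 reached this filter, 4 were called higher in sperm (8.89%, where 6.7% of all genes tested were) and 8 lower (17.8%, where 20.8% of all genes tested were). The other 33 did not pass. The members' median log2 fold change was -1.51 and that of all genes tested -1.03. Both shares are near those of all genes. Of the 8 called lower, 5 had no count in sperm and reached the filter only through testes. Dnajc5, Dnajc17 and Hspa1b, called higher, reached it only through sperm, with 2, 4 and 2 summed counts in testes. Of all genes tested, 687 had no count in sperm replicates 2 to 4, so these numbers of calls are a description. The all-gene median itself moved with the scaling, to -1.48 with TMM factors and -2.07 with DESeq2, and the members' median differed from it by -0.48, -0.44 and -0.54 in the 3 fits. Without sperm replicate 2 that difference was 0.04, and without testes replicate 2 it was -0.09.

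The 4 members called higher were Hspa12a, Dnajc5, Dnajc17 and Hspa1b. Hspa12a (chromosome 19, 58795750 to 58943672), a distant relative of the HSP70 proteins, had 50, 155, 93 and 68 counts in sperm replicates 1 to 4, against 104 and 47 in the deeper testes libraries. In CPM these were 1180, 1550, 2775 and 1251 against 322 and 150, so all 4 sperm libraries lay above both testes libraries. By edgeR's test its log2 fold change was 2.97 ± 0.62 (SE) at an adjusted p of 6.44e-05, and the call was lost with TMM factors (2.29, adjusted p 0.0895) and with DESeq2 (1.92, adjusted p 0.0571). The span of Hspa12a overlaps Eno4, lncRNA genes and a microRNA, and whether the counting used strand is not given in the sources used here.

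Dnajc5 (chromosome 2, 181518858 to 181552886) encodes the cysteine string protein of secretory vesicles. It had 7, 50, 11 and 11.65 counts in sperm replicates 1 to 4, against 1.66 and 0 in testes. Every sperm library was above both testes libraries, at 165, 500, 328 and 214 CPM against 5.15 and 0 CPM. Over sperm replicates 2 to 4, 73 counts stood against 2 in testes, a CPM ratio of 124 with an exact 95% counting interval of 33.0 to 1041. This interval covers counting error only, not the spread between libraries. The fitted log2 fold change was 6.51 with an SE of 1.52 (edgeR, adjusted p 4.85e-04), and without testes replicate 2 the call was lost (5.62, adjusted p 0.167).

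Dnajc17 (chromosome 2, 119172500 to 119208838), a nuclear J-domain protein with an RNA recognition motif, had 0, 10, 25 and 13 counts in sperm and 1 and 3 in testes. Its CPM ran from 100 to 746 in sperm replicates 2 to 4 and was 3.10 and 9.55 in testes, and replicate 1 at 0 was below both. The CPM ratio of the summed counts was 40.7, with an exact 95% counting interval of 14.9 to 155 that covers counting error only. The fitted log2 fold change was 5.64 with an SE of 1.44 (edgeR, adjusted p 0.00208). Its span overlaps Zfyve19 and Gm14137. The call failed without either testes replicate and with TMM factors.

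Hspa1b and Hspa1a (chromosome 17, 34956429 to 34959238 and 34969359 to 34972156) are the stress-inducible HSP70 genes, near-identical copies whose reads the counting could split. Hspa1a had 49.35, 37.51, 32 and 13.03 counts in sperm replicates 1 to 4, against 82.33 and 89.08 in testes. Hspa1b had 14.65, 21.19, 0 and 18.97 counts in sperm and 1.6 and 0 in testes. The share of the pair's counts given to Hspa1b was 22.9, 36.1, 0 and 59.3% in sperm and 1.91 and 0% in testes, so it varied as much among sperm libraries as between the groups. Hspa1b was called higher (edgeR log2 fold change 5.63 ± 1.78 SE, adjusted p 0.0211) and Hspa1a was not (0.94, SE 0.82, edgeR adjusted p 0.403). The call of Hspa1b was lost in 6 alternatives, which were no filter on low counts, the fits without sperm replicate 2 or either testes replicate, and both limma fits. Summed, an alternative chosen after seeing the data, the pair had 1510, 587, 955 and 589 CPM in sperm and 260 and 283 CPM in testes. The sum was higher in all 4 sperm libraries than in both testes libraries, but its edgeR log2 fold change of 1.38 (SE 0.75, adjusted p 0.159) did not pass.

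The members called lower were Dnajc1, Hsp90aa1, Dnajc14 and 5 genes that sperm libraries did not list. Dnajc1 (chromosome 2, 18205634 to 18394099) encodes a J-domain protein of the endoplasmic reticulum membrane that works with BiP. It had 25, 45, 24 and 32 counts in sperm replicates 1 to 4, against 1548.03 and 1445.27 in testes. In CPM sperm ran from 450 to 716 and testes stood at 4798 and 4599, with a wide gap between the groups. By edgeR's test its log2 fold change was -3.02 ± 0.47 (SE) at an adjusted p of 1.57e-08, and the gene was called lower in each of the 14 alternatives tried, with log2 fold changes from -4.05 to -2.85. Nearly all of its counts, 1532.99 and 1433.99 in testes, were given to the transcript NM_001190817. The span of Dnajc1 overlaps Mllt10.

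Hsp90aa1 (chromosome 12, 110691036 to 110696395), the inducible cytosolic HSP90 that male meiosis requires, had 3.2 and 1 counts in sperm replicates 2 and 4, 0 in replicates 1 and 3, and 106 and 406 in testes. The testes libraries differed from each other, at 329 and 1292 CPM, and every sperm library was at 32.0 CPM or less. By edgeR's test its log2 fold change was -5.31 ± 1.05 (SE) at an adjusted p of 1.71e-05, and the call was lost without testes replicate 2 (-4.10, adjusted p 0.482). The other cytosolic form, the constitutive Hsp90ab1, had 10 and 5 counts in sperm replicates 2 and 4 and 26 and 85 in testes and did not pass (-1.34, edgeR adjusted p 0.464). Hsp90b1, the HSP90 of the endoplasmic reticulum, had 1 and 4 counts in sperm replicates 3 and 4 and 33 and 88 in testes (-2.55, edgeR adjusted p 0.181).

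Dnajc14 (chromosome 10, 128804904 to 128819448), another J-domain protein of the endoplasmic reticulum membrane, had 27, 40, 19 and 26 counts in sperm and 401 and 502 in testes. Sperm CPM of 400 to 637 lay below the testes values of 1243 and 1597. By edgeR's test its log2 fold change was -1.57 ± 0.61 (SE) at an adjusted p of 0.0384, and of the 14 alternatives the call held in 6, with Tmem198b and Ormdl2 overlapping its span.

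The other 5 called lower had 0 counts in all 4 sperm libraries, and could pass the filter only through testes. They were Cct8 (26 and 44 counts in testes), a TRiC subunit, Dnajc2 (18 and 16), which acts at the ribosome, Dnaja3 (8 and 19), a mitochondrial J-domain protein, Dnajc21 (6 and 17.96), which serves ribosome maturation, and Cct3 (7 and 17), another TRiC subunit. Against 3 counts over sperm replicates 2 to 4 together, 16.0 CPM, Cct8 was at least 6.91-fold lower, Dnajc2 at least 3.34-fold, Dnaja3 at least 2.67-fold, and Dnajc21 and Cct3 at least 2.37-fold. Against testes replicate 1 alone these bounds were 5.05-fold for Cct8, 3.49-fold for Dnajc2, 1.55-fold for Dnaja3, 1.16-fold for Dnajc21 and 1.36-fold for Cct3. These bounds allow for counting error in sperm only and take the testes levels as exact, so counting error in testes could lower them. Sperm replicates 2 to 4 varied by more than that, with a chi-square per degree of freedom of 4.93 to 12.5 between pairs of libraries. Each of the 5 calls was lost without sperm replicate 2 or 4, with no filter on low counts and with the replicate number as a block. With DESeq2, Cct8 was still called lower, and Dnajc2, Dnaja3, Dnajc21 and Cct3 were not.

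**Figure D4:**
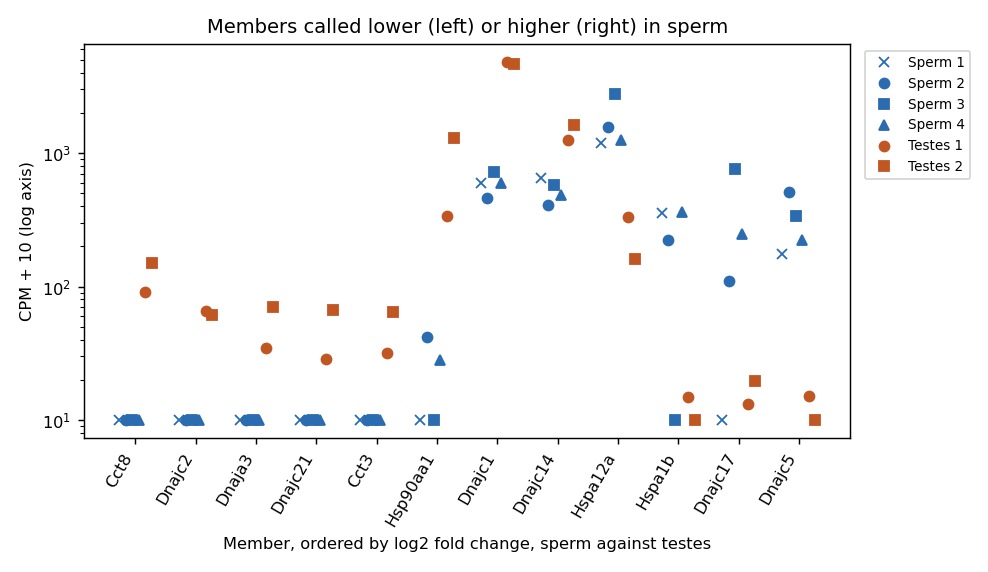
CPM of RefSeq mRNA counts plus 10 (log axis) of the 12 called members in each library (sperm blue, testes brown, a symbol per replicate), ordered by log2 fold change. For Dnajc1 the sperm libraries at 450 to 716 CPM lie under the testes libraries at 4599 and 4798 CPM, and for Dnajc5 the order is the opposite.

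In both groups most counts of the TRiC ring fell on 1 of its 8 subunits. Tcp1 (chromosome 17, 12916329 to 12925067), the alpha subunit, had 106, 149, 31 and 47 counts in sperm replicates 1 to 4, against 172 and 288 in testes, or 865 to 2501 CPM against 533 and 916 CPM, with the groups overlapping. It did not pass (edgeR log2 fold change 0.60 ± 0.60 SE, adjusted p 0.473), and its sign reversed with DESeq2 (-0.41). The other 7 subunits together had 0, 6, 0 and 7 counts in sperm and 74 and 117 in testes. All sperm counts of Tcp1 were given to the transcript NM_001290712 (2413 bases), which had 57.73 and 0 counts in testes. The transcript NM_013686 (2499 bases) had 114.27 and 288 counts in testes and 0 in sperm. The division between transcripts was unstable for some other members. Bag6 had all its counts on NM_057171 in testes replicate 1 (27) and on NM_001252468 in testes replicate 2 (22), while Bag1 was split evenly in every library. Whether sperm and testes differ in the Tcp1 transcript was not tested. The span of Tcp1 overlaps Acat3 and Mrpl18 and holds snoRNA genes, and the part of these neighbours in its counts was not tested.

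Of the other subunits, Cct7 had 3 and 7 counts in sperm replicates 2 and 4 and 18 and 17 in testes (edgeR log2 fold change -0.01, adjusted p 0.998). Cct4 had 3 counts in sperm replicate 2 and 11 and 16 in testes (-1.51, edgeR adjusted p 0.370). Cct2, Cct5 and Cct6a had 0 in sperm and at most 9 counts in a testes library, too few to be tested.

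The constitutive HSP70 genes were low in sperm. Hspa8, the general cytosolic HSP70, had 3 and 1 counts in sperm replicates 2 and 3 and 78 and 37.82 in testes. Its log2 fold change of -3.12 with an SE of 1.55 (edgeR, adjusted p 0.117) did not pass, while DESeq2 (-4.14, adjusted p 0.0153) and limma on log2(FPKM + 1) called it lower. Hspa5, the BiP of the endoplasmic reticulum, had 2 counts in sperm replicate 2 and 18 and 26 in testes (-2.75, edgeR adjusted p 0.164). Hspa9, the mitochondrial HSP70, had 2 and 1 counts in sperm replicates 1 and 2 and 13 and 27 in testes (-3.46, edgeR adjusted p 0.0933). Both limma fits called Hspa9 lower, and limma on log2(FPKM + 1) also called Hspa5 lower, while DESeq2 called neither.

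Bag1 and Bag5, exchange factors for HSP70, and Dnajc7, which links HSP70 to HSP90, were among the highest members in both groups. Bag1 had 14, 16, 16 and 4 counts in sperm and 51 and 40 in testes, split evenly between its 2 transcripts (edgeR log2 fold change 0.68, adjusted p 0.683). Dnajc7 had 12, 39, 5 and 31 counts in sperm and 169 and 180 in testes (-0.55, edgeR adjusted p 0.624). Bag5 varied among sperm libraries, with 2, 42, 0 and 5 counts against 80 and 131 in testes (-0.86, edgeR adjusted p 0.533).

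Levels between genes were ordered per length, as FPKM summed per gene, in ppm of the summed RefSeq mRNA FPKM. In sperm replicates 2 to 4 the order began with Dnajb8 (2179 ± 815), Tcp1 (1119 ± 353), Dnajc17 (918 ± 875), Hspa12a (793 ± 352) and Hspa1a (463 ± 340; SD, n = 3). The neighbours in this order were closer than their SD, apart from Dnajb8 over Tcp1. In testes it began with Dnajb8 (4511 ± 630), Dnajc1 (2327 ± 96.4), Dnajc14 (848 ± 140), Tcp1 (741 ± 264) and Hsp90aa1 (720 ± 600; SD, n = 2), where Dnajc14, Tcp1 and Hsp90aa1 did not differ beyond their spread. Of the 12 highest members in each group, 8 were shared. The 3 testis-specific genes stood at ranks 23 (Hspa2), 28 (Hspa1l) and 22 (Dnajb3) of 85 in sperm and at 15, 19 and 8 in testes.

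**Figure D5:**
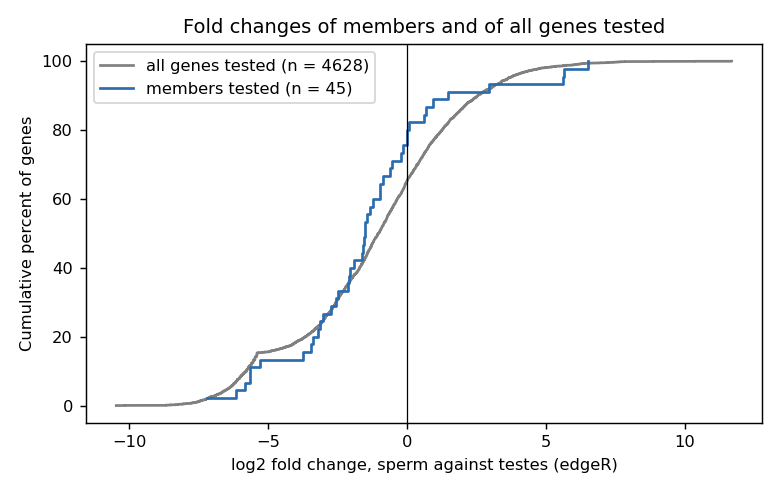
Cumulative percent of genes by edgeR log2 fold change, sperm against testes, for the 45 members tested (blue) and all 4628 genes tested (grey), with a line at 0. The member curve crosses 50% at -1.51 and that of all genes at -1.03, and 36 of the 45 members lie below 0.

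The other genes of the folding pathway were counted in the same way. Of 49 listed (heat shock factors, HSP90 co-chaperones, prefoldin, tubulin-folding cofactors and chaperones of the endoplasmic reticulum), 20 were tested, 0 were called higher and 6 lower (30%), where 6.7% and 20.8% of all genes tested were, with a median log2 fold change of -1.29. None was called higher by DESeq2 either, and 0 had a positive change at an unadjusted p under 0.05 with edgeR. Ahsa2, a relative of the HSP90 activator AHSA1, had 2116, 551, 1074 and 579 CPM in sperm and 5027 and 5603 CPM in testes (edgeR log2 fold change -2.88 ± 0.45 SE, adjusted p 1.81e-08). The other 5 (Hsf5, Pdcl2, Canx, Clgn and Tbce) had 0 counts in sperm and reached the filter only through testes, so their calls are a description. Clgn, the testis calnexin that sperm need for fertility, had 11 and 28 counts in testes, and Canx had 0 and 33.53. Cdc37l1, an HSP90 co-chaperone, had 3, 23, 27 and 7 counts in sperm and 292.29 and 376 in testes, and Unc45b, an HSP90 partner for myosin, had 38, 40, 13 and 32 against 254 and 304. Neither passed with edgeR (adjusted p 0.0843 and 0.301). Hsf1, the main heat shock factor, had 1 count in sperm and 5 and 6 in testes.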

How the data were processed

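Strand-specific, rRNA-depleted RNA-seq of 4 sperm and 2 testes libraries was analysed, grouped by the sample titles. The authors filtered reads and mapped them with SOAPaligner/SOAP2 by the methods, while the submitters' processing notes name HISAT and mm10. The counting program is not given in the sources used here. Per the file headers, the deposited tables give for each listed transcript an estimated count that is not scaled for depth, FPKM (scaled by length and library) and the length in bases. Absent transcripts were taken as 0.

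Estimated counts were summed per gene over RefSeq mRNA (NM_) and scaled by their total in the library. Members were matched to GRCm38.p6 coordinates through transcript accessions, 84 of 85. Members and lists were chosen with earlier results of these data known. Named were the testis-specific and germ cell members, up to 12 called members per direction, the 12 highest members per length in each group and the 8 TRiC ring subunits.

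Sperm replicates 2 to 4 were compared with testes by edgeR's quasi-likelihood test (edgeR 4.0.16, R 4.3.3) on rounded sums without TMM factors, over genes with at least 20 counts in the 5 libraries, with Benjamini-Hochberg adjustment over all of them. Sperm replicate 1, left out by the study after its correlation check, is shown beside the others. Standard errors were derived from the F statistic. Alternatives used TMM factors, DESeq2 1.42.0, limma 3.58.1 on log2(CPM + 10) and log2(FPKM + 1), another library total, no filter, all sperm libraries, a replicate block and leaving out each replicate. The scripts were tested on simulated data. Summed levels of members have no p-value.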

Additional observations from a re-analysis of the deposited data

How the results depend on the processing

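Fold changes of the 23 members refitted under each setting kept their direction and side of the threshold in 249 fits, lost a call in 55, gained one in 6 and reversed in 2: Hspa1a (-0.20) and Tcp1 (-0.41), both with DESeq2. The 249 include members that were not called in the main fit and stayed uncalled, so they do not measure how firm the calls are. All 55 losses fell on called members. Apart from Dnajc1, each called member lost its call in 2 to 8 of the alternatives. Against 4 members called higher, TMM factors gave 2 (2.53% of all genes) and no filter on low counts 0 (4 at an unadjusted p under 0.05; DESeq2 with the filter called 3). Against 8 called lower (20.8% of all genes), no filter gave 1 (0.0278%), limma on log2(FPKM + 1) 14 (27.2%), and an adjusted p under 0.01 gave 2 (3%). Leaving out 1 library gave 1 to 4 higher and 1 to 8 lower: 2 lower without sperm replicate 2 or 4 or testes replicate 1 (1.96, 4.26 and 2.5% of all genes), and 1 higher and 1 lower without testes replicate 2 (2.6 and 1.9%). Over all genes, no filter gave 15 higher and 4 lower against 310 and 963.

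Sperm and testes share replicate numbers 1 and 2 in the labels, but same-numbered libraries did not deviate together (r -0.0182 and -0.0597 over 4628 genes, where the 2 testes deviations are exact negatives). With the replicate number as a block, 3 members were higher and 2 lower, and of all genes 179 and 122.

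The log2 ratio of the members' share, -0.78, was -1.05 with the total of all RNA classes and -0.30 without Dnajc1, and -0.91 to -0.65 without 1 library. The difference in the testis-specific to ubiquitous log2 ratio, -1.24, was -0.42 with the whole germ cell list and -1.80 to -0.53 without 1 library. The log2 ratio of the summed HSP70 CPM, 1.17, was -0.10 without Hspa12a. The log2 ratio of members listed ran from -1.81 to -1 without 1 library. In each case the cause was not tested. Depth limits the low members most: 29 had no count in any sperm library, and 40 did not reach the filter.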
